A study of Mus musculus with 54 samples.

Results

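Mitochondrial ribosomal protein genes were followed across bone marrow myeloid progenitors of mice profiled by MARS-seq, a plate method that tags the 3′ ends of the mRNA of single sorted cells with unique molecular identifiers (UMIs). The members are the gene rows of the authors' UMI table with a symbol that begins with Mrpl or Mrps followed by a digit, the names of the large and small subunit proteins, and with at least 100 UMIs in all wells. The naming rule matched 76 of 27297 rows and 73 were kept, 46 Mrpl and 27 Mrps. The member nearest above the minimum was Mrpl1 with 171 UMIs, and those below it were Mrpl23 with 50, Mrps18b with 37 and Mrps34 with 19. In 2 kept rows the authors joined the member with another gene, Mrpl53 with Ccdc142 and Mrps6 with Slc5a3, so values of these rows are uncertain, and 7 more rows join only alternative spellings of 1 gene.

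The mitochondrial ribosome makes the few proteins that are encoded in mitochondrial DNA, all of them subunits of the oxidative phosphorylation complexes. Its RNAs come from the mitochondrial genome, but every protein of it is encoded in the nucleus, made in the cytosol and imported. Some of these proteins have counterparts in bacterial ribosomes and others are particular to mitochondria. Erythroid precursors need mitochondria for haem and iron-sulphur cluster synthesis, whereas mature neutrophils, which are not the cells sorted here, rely largely on glycolysis. Not every member is a subunit in the sense of its name: the products of Mrps30 and Mrps18a sit in the large subunit, and the product of Mrps36 belongs to the alpha-ketoglutarate dehydrogenase complex.

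The 54 amplification pools hold 8 groups, as the authors' well table describes them. All cells were C57BL/6 bone marrow cells that lacked lineage markers and Sca1 and carried cKit. Unsorted myeloid progenitors (16 pools, 2732 cells kept) came from wild-type mice. Gates within the CMP (common myeloid progenitor) fraction, which is CD34+ with low FcgR, were CD41+ (2 pools, 336 cells), Flt3+ Csf1r+ (6 pools, 1132 cells) and Irf8-GFP+ MHCII+ from Irf8-GFP reporter mice (6 pools, 1116 cells). The Cebpa knockout (12 pools, 1384 cells) carried Cebpa(flox/flox) and Mx1-Cre, an interferon-driven Cre that acts in many tissues and is switched on with poly(I:C). The Cebpa control (6 pools, 890 cells) is named Cebpa(flox/flox), but the strain labels of its replicates 3 and 4 name Mx1-Cre. The Cebpe-/- group had 4 pools (559 cells) and its Cebpe+/+ control 2 (250 cells). Labels give ages of 6 to 8 weeks for the pools of unsorted cells, the CD41+ and Irf8-GFP+ MHCII+ gates, 4 of the 6 Flt3+ Csf1r+ pools and the Cebpa pools of sequencing batch SB29, and poly(I:C) without a dose for the latter. The other Flt3+ Csf1r+ pools, replicates 3 and 4, are labelled as injected Cebpa knockout mice of 14 weeks. Every pool of batch SB23, which holds all Cebpe pools, 4 of the Cebpa knockout and 2 of its control, carries the label of another group. Ages (14 weeks for most of them) and injections (3 of 300 µg poly(I:C), 3 weeks before harvest, for some) on the labels of these pools therefore cannot be assigned to the table's groups.

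For 36 pools the sample label and the authors' table name the same group, and for 18 they do not. The table was followed because the targeted genes go with it. Cebpe had 0 UMIs in each of the 4 Cebpe knockout pools of the table and 21 and 40 in its controls, while by label the Cebpe knockout pools reach 34 UMIs and both control pools are at 0. Cebpa had 0 to 2 UMIs in the 12 Cebpa knockout pools of the table and 35 to 64 in its 6 controls. The table names 1 mouse identifier per group, so p-values measure only the spread between amplification pools, which may be technical. Cells with at least 500 UMIs were kept, 8399 of 10260, with a median of 2646 UMIs. Sequencing batch and group cannot be told apart for the Flt3+ Csf1r+ and the Irf8-GFP+ MHCII+ gates against unsorted cells.

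In the kept cells the members held 321170 UMIs, 1.17% of all. Levels are given as CPM, the UMIs of a row per 1000000 UMIs of the kept cells. A UMI counts 1 mRNA molecule by its 3′ end, so these levels carry no correction for length. How well the 3′ end of each gene was captured was not measured, so ranks between genes are ranks of UMIs. Mrpl rows ranged from 6.22 to 518 CPM with a median of 145, and Mrps rows from 10.7 to 381 with a median of 147. Summed by name, the Mrpl rows had 7819 CPM and the Mrps rows 3866. The 45 members with a bacterial counterpart had a median of 164 CPM and the 28 members particular to mitochondria one of 121. The 8 most abundant members were Mrpl52, Mrpl12, Mrpl18, Mrpl30, Mrps24, Mrpl34, Mrpl20 and Mrpl54, and they held 27.8% of the members' UMIs. Mrpl52, a protein of the large subunit that has no bacterial counterpart, was the most abundant with 14438 UMIs in all wells. Mrpl12, whose product forms part of the stalk that recruits translation factors and also binds the mitochondrial RNA polymerase, followed with 12673.

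The promoters of 5 members are shown because the sections below turn on these genes: Mrpl52 and Mrpl9 were highest in the megakaryocyte and erythroid surface gate, Mrpl33 and Mrpl44 were lower there than in the granulocyte and monocyte gate, and Mrpl12 was the second most abundant member. Each is the 250 bases before the annotated start in RefSeq on build GRCm38.p6, written 5′ to 3′ on the gene's strand. They lie at chr14:54426659-54426908, plus strand (Mrpl52), chr3:94443086-94443335, plus strand (Mrpl9), chr11:120484387-120484636, plus strand (Mrpl12), chr5:31613701-31613950, plus strand (Mrpl33) and chr1:79775768-79776017, plus strand (Mrpl44). Capitals mark matches on either strand to the ETS core CCGGAA, the NRF1 motif (GCGCA, any base, then GCGC), the YY1 word AAGATGG and the E-box CACGTG.
Mrpl52: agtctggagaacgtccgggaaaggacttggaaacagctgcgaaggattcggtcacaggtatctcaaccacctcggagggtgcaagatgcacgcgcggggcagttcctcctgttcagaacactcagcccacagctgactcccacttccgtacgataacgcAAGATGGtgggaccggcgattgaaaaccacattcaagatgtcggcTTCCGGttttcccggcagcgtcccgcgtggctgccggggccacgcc
Mrpl9: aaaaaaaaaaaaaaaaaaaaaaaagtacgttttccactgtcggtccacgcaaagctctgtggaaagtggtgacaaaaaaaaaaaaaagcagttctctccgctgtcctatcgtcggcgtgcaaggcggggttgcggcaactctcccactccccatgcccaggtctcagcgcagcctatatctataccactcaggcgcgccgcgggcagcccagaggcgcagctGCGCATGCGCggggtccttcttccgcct
Mrpl12: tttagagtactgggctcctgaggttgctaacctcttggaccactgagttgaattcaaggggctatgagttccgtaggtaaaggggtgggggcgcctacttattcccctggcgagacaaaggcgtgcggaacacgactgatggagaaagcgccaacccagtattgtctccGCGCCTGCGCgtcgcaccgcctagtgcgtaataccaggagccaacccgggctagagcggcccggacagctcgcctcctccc
Mrpl33: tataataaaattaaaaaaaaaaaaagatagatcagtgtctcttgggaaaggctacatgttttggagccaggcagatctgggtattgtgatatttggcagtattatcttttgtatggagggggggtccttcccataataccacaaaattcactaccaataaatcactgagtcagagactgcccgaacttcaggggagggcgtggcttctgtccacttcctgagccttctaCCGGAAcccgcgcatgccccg
Mrpl44: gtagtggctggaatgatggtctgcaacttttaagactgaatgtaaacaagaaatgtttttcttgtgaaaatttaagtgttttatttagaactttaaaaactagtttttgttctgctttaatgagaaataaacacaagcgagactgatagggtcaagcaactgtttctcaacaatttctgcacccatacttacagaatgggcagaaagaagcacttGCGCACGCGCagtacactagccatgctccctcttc

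These words were counted in promoters of 300 bases, 250 before the start and 50 after it. Of the members, 65 matched the RefSeq table, with 71 promoters, and Mrpl13, Mrpl15, Mrpl19, Mrpl38, Mrpl4, Mrpl54, Mrps28 and Mrps35 had no entry. CCGGAA, the core bound by ETS factors such as GABP, was found in 40 of the 71 (56.3%) against 14.9% of all 32851 promoters. The motif of NRF1, a regulator of nuclear genes for mitochondrial proteins, was found in 12 (16.9%) against 4.60%. Its palindromic form, with T as the free base and contained in the former count, was found in 3 (4.23%) against 0.971%. AAGATGG was found in 13 (18.3%) against 6.34%, and CACGTG, bound by Myc and Max among others, in 7 (9.86%) against 7.15%. At least 1 of these words was in 54 promoters (76.1%), against 28.0% of all. The promoters of Mrpl52 and Mrpl33, which moved in opposite directions across the gates, both hold CCGGAA, and those of Mrpl9, Mrpl12 and Mrpl44 hold the NRF1 motif. A match describes letters in a window and is no measure of binding.

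Summed over the 73 rows, the members' level was lowest in the Irf8-GFP+ MHCII+ gate and highest in the Cebpa groups and the Cebpe control. The Irf8-GFP+ MHCII+ pools had 8082, 8608 and 8900 CPM (lowest, median and highest of 6), below every pool of the other groups except 1 Flt3+ Csf1r+ pool at 8867. The Flt3+ Csf1r+ pools had 8867, 10226 and 10494. The 4 Cebpe knockout pools had 10267, 10708, 10244 and 10354. The CD41+ pools had 11482 and 11523, inside the range of the unsorted pools at 10565, 12079 and 13083 (lowest, median and highest of 16). Above these, the Cebpa knockout pools had 11719, 13288 and 13870, the Cebpa control pools 12882, 13266 and 15849, and the Cebpe control pools 12882 and 13947. In such sums over a pool, fewer cells of a type and less mRNA per cell cannot be told apart. Neighbours in this order mostly overlap: Flt3+ Csf1r+ with the Cebpe knockout, CD41+ with unsorted, and the 3 highest groups with one another and with unsorted. Across the 8 group sums, 33 of 73 members were lowest in the Irf8-GFP+ MHCII+ gate and 0 were highest there, while 26 were highest in the Cebpa control and 14 in the Cebpe control.

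**Figure D1:**
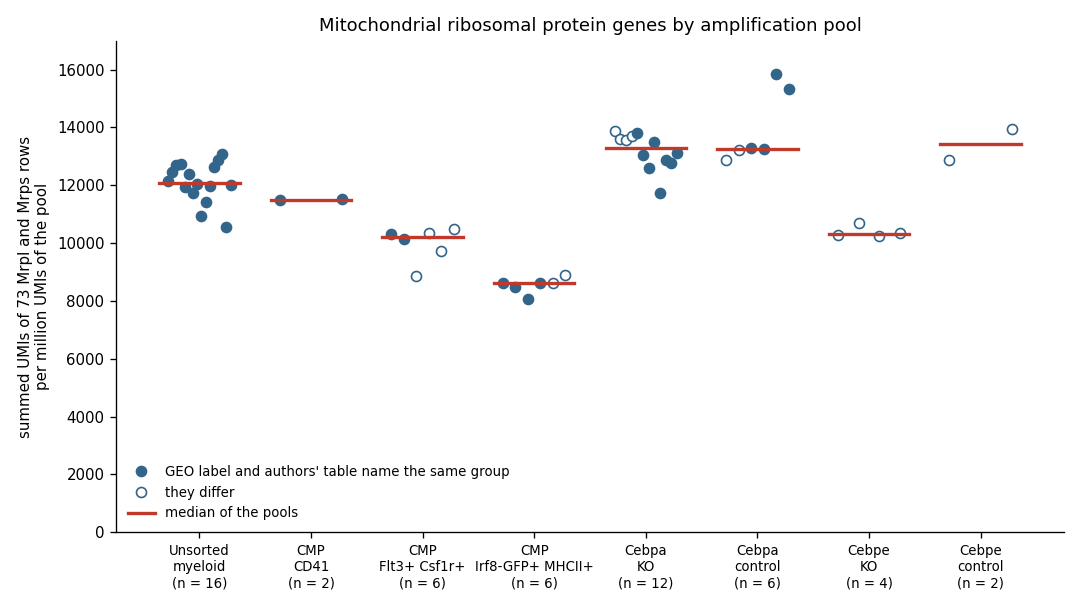
Each point is 1 amplification pool and gives the summed level of the 73 members in CPM (vertical axis, linear from 0) for the 8 groups of the authors' table (horizontal axis, with the number of pools); red lines are medians and open points are pools whose sample label names another group. The 6 Irf8-GFP+ MHCII+ pools lie between 8082 and 8900, and the 16 unsorted pools between 10565 and 13083.

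The ratio of Mrpl to Mrps UMIs varied little. Its group medians ran from 1.86 in the CD41+ gate and 1.90 in the Flt3+ Csf1r+ gate to 2.12 in the Cebpe control and 2.18 in the Cebpe knockout. The unsorted pools alone covered 1.80 to 2.18, so these medians lie within or at the edge of the spread between unsorted pools. That spread went with the plates described below: 1.80 to 1.97 in the unsorted pools of plates 4, 6 and 8, and 1.96 to 2.18 in those of plates 2, 3, 5, 7 and 9. The part of plate in the ratios of the groups was not tested. Set against the UMIs of cytosolic ribosomal proteins, the members amounted to 13.0% in unsorted cells, 8.47% in the Irf8-GFP+ MHCII+ gate, 8.30% in the CD41+ gate and 7.94% in the Flt3+ Csf1r+ gate. Set against the nuclear-encoded oxidative phosphorylation subunits, they amounted to 34.2%, 29.1%, 28.3% and 29.2% in the same order.

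Index sorting recorded the surface CD34 and FcgR intensity of each unsorted cell, and thresholds of 100 and 600 divided the unsorted pools into the classical gates. CD34-low FcgR-low cells (MEP, the megakaryocyte and erythrocyte progenitor gate) were 1164, CD34-high FcgR-low cells (CMP) 598 and CD34-high FcgR-high cells (GMP, the granulocyte and monocyte progenitor gate) 906. A further 40 cells were CD34-low and FcgR-high, with 9052 CPM of members, and 24 had no intensities. Markers went with the gates: the 10 erythroid markers summed to 14181 to 17533 CPM in MEP-gate pools and 504 to 1517 in GMP-gate pools, and the 8 neutrophil markers to 1235 to 3113 and 38224 to 57569. CMP-gate pools lay between, with 1587 to 6599 and 6466 to 24119. Tests compared gates within the same pools, 16 with MEP and GMP gates and 15 with a CMP gate of at least 20 cells.

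The members were highest in the MEP gate. Their sum was 11846, 13324 and 14407 CPM in MEP-gate pools (lowest, median and highest of 16), 9169, 10822 and 12141 in CMP-gate pools (15) and 9278, 10580 and 11981 in GMP-gate pools (16). Within a pool the MEP gate exceeded the GMP gate in 16 of 16 pools, by 1.17 to 1.37 times with a median of 1.25, and the CMP gate in 15 of 15, by 1.09 to 1.40 times with a median of 1.22. With Mrpl52 left out the median ratios were 1.21 and 1.18, and the MEP gate was again higher in 16 of 16 and in 15 of 15 pools. GMP and CMP gates did not separate in these unscaled sums, with the GMP gate higher in 5 of 15 pools and a median ratio of 0.984. Scaling the library sizes by edgeR's TMM factors changed this. Scaled means were 13378 CPM in the MEP gate, 10055 in the CMP gate and 11330 in the GMP gate. Unscaled means were 13295, 10760 and 10583 in the same order. Per cell the sum was 48.6 to 74.5 UMIs in MEP-gate pools, 15.9 to 27.9 in CMP-gate pools and 26.4 to 42.7 in GMP-gate pools, and the median UMIs per cell moved with it at 4586, 1790 and 3001. The part of cell depth in the gate differences was not tested. Over the 15 pools with all gates, each weighted equally, 61 of 73 members had their highest mean in the MEP gate, 7 in the CMP gate and 5 in the GMP gate (58, 10 and 5 by sums over the gates). In more of these pools than not, 63 members were higher in the MEP than in the CMP gate and 65 higher in the MEP than in the GMP gate.

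**Figure D2:**
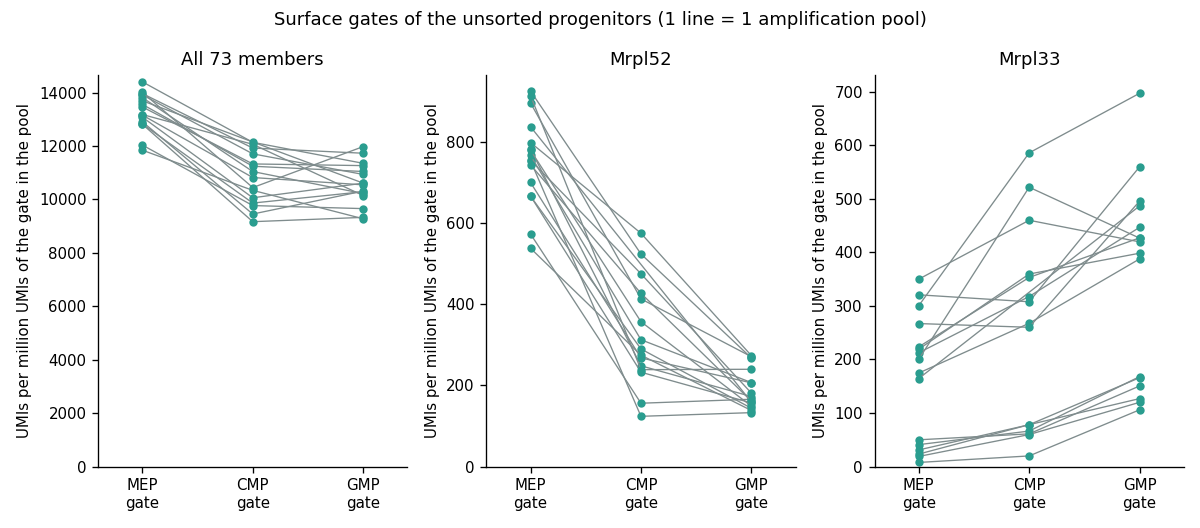
Each line joins the gates of 1 unsorted pool and gives CPM within that gate (vertical axes, linear from 0) for the sum of the 73 members, for Mrpl52 and for Mrpl33. Both the sum and Mrpl52 are highest in the MEP gate in every pool, while Mrpl33 is lower in the MEP than in the GMP gate in every pool and falls into 2 sets of pools at different levels.

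Against the GMP gate, 27 of the 62 members that passed the filter on low counts were higher in the MEP gate and 3 lower (edgeR, adjusted p under 0.05), where 36.4% of all 4539 rows were called higher and 31.6% lower, 68% in all. The other 11 members were too low to test, so these counts are not of all members. The median log2 difference of the tested members was 0.17, and that of all rows 0.06. Mrpl52 differed most. It had 538, 761 and 925 CPM in MEP-gate pools and 133, 169 and 273 in GMP-gate pools, so the gates did not overlap. Its log2 difference was 1.90 ± 0.07 (SE; edgeR adjusted p = 1.81e-41), higher in 16 of 16 pools. The next were Mrpl9 (0.78 ± 0.11, edgeR adjusted p = 2.27e-09), Mrpl3 (0.76 ± 0.12, edgeR adjusted p = 5.69e-08), Mrpl38 (0.66 ± 0.09, edgeR adjusted p = 9.10e-10) and Mrps22 (0.64 ± 0.11, edgeR adjusted p = 2.33e-07). Mrpl9 and Mrpl3 are large subunit proteins with bacterial counterparts, whereas Mrpl38 and Mrps22 are particular to mitochondria. Mrpl9 had 90.0, 135 and 171 CPM in MEP-gate pools and 37.7, 77.7 and 103 in GMP-gate pools, higher in 16 of 16 pools although the ranges overlap. Mrps30, Mrpl46 and Mrpl22 rose by 0.48 to 0.52.

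The 3 members that were lower in the MEP than in the GMP gate were Mrpl33, Mrpl44 and Mrpl4. Mrpl33, a small protein of the large subunit with a bacterial counterpart, had 7.63, 187 and 350 CPM in MEP-gate pools and 106, 409 and 697 in GMP-gate pools. The ranges overlap because pools differ in level, but the MEP gate was lower in 16 of 16 pools, with a log2 difference of -1.28 ± 0.09 (edgeR adjusted p = 2.86e-22). Mrpl44, a large subunit protein related to RNase III, had 97.8, 136 and 165 in MEP-gate pools and 108, 169 and 249 in GMP-gate pools. It was lower in 14 of 16 pools, with a log2 difference of -0.51 ± 0.09 (edgeR adjusted p = 1.69e-06). Mrpl4, a protein of the exit tunnel wall, was lower in 14 of 16 pools as well, with -0.35 ± 0.09 (edgeR adjusted p = 0.000620).

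**Figure D3:**
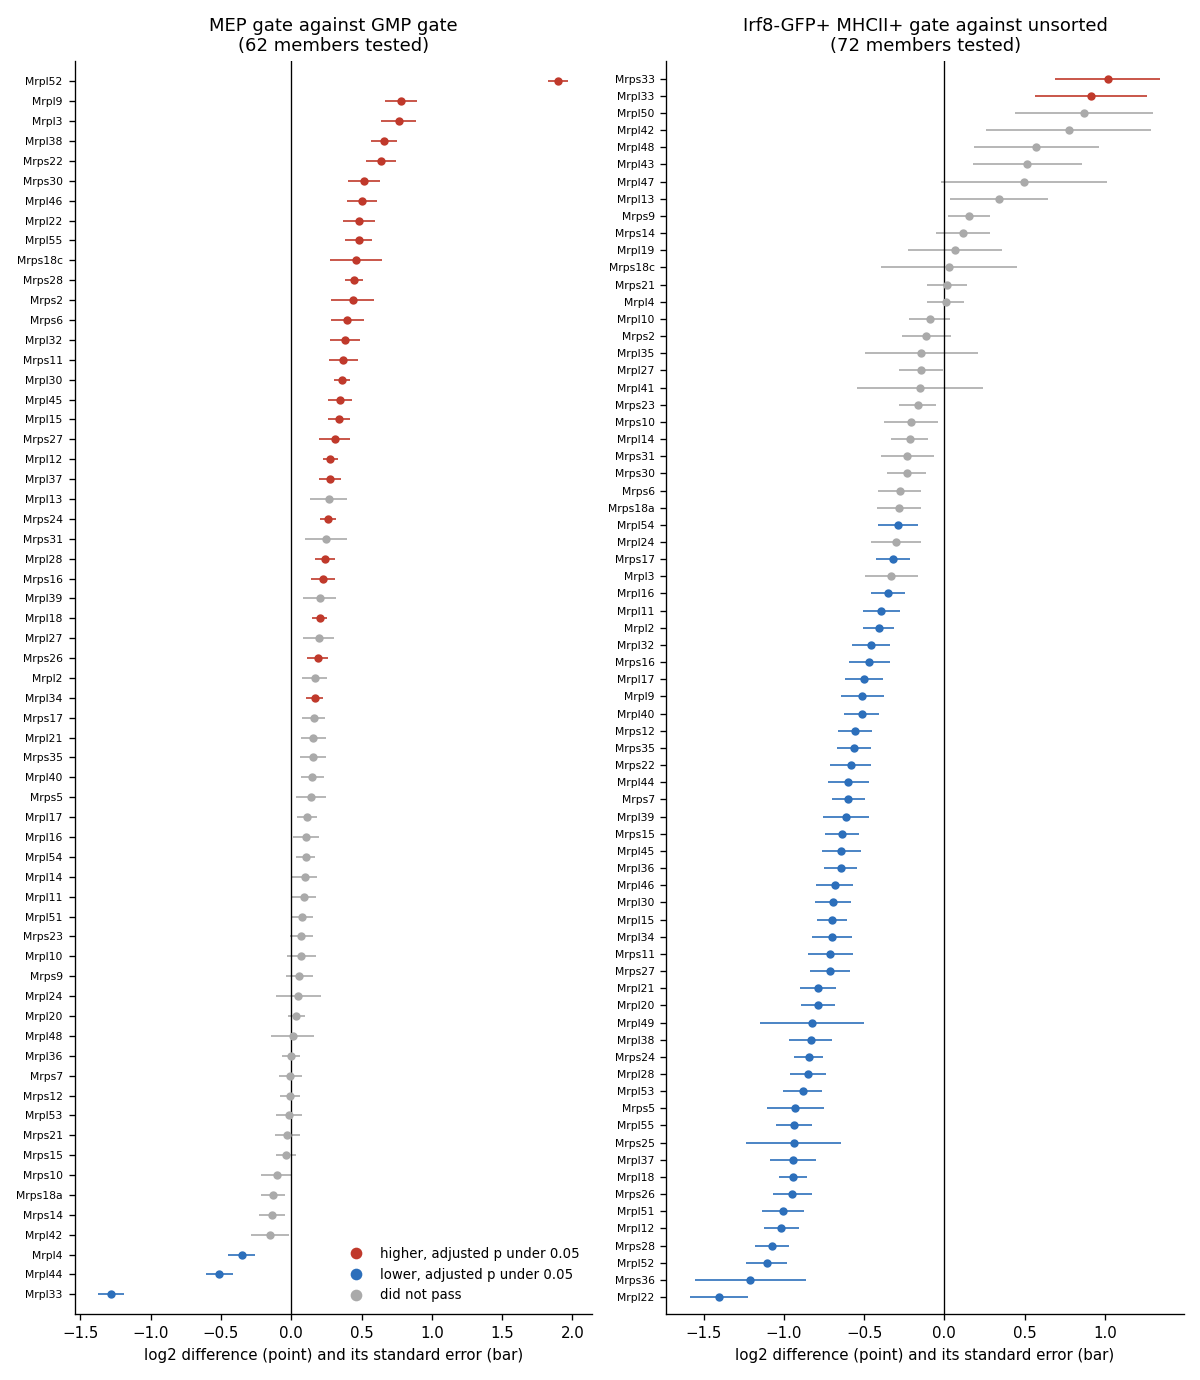
Log2 differences (points) with standard errors (bars) from edgeR for each member tested, in the MEP against the GMP gate (left, 62 members) and in the Irf8-GFP+ MHCII+ gate against unsorted pools (right, 72 members); red and blue mark adjusted p under 0.05. Mrpl52 stands at 1.90 and Mrpl33 at -1.28 on the left, and 44 members are called lower on the right.

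Against the CMP gate, 24 of 62 members were higher in the MEP gate and 1 lower, with 22.3% of all rows called higher and 24.6% lower, 46.9% in all (edgeR, adjusted p under 0.05). The members' median log2 difference was 0.23 against 0.02 for all rows. Mrpl52 led again with 1.10 ± 0.08 (edgeR adjusted p = 1.32e-20), from 124, 290 and 575 CPM in CMP-gate pools. Mrpl37, a large subunit protein particular to mitochondria, rose by 0.76 ± 0.12 (edgeR adjusted p = 9.02e-08) and was higher in 15 of 15 pools. Mrpl3 (0.65), Mrpl9 (0.63) and Mrps22 (0.62) were again among the largest. Mrpl33 was the member that was lower, by -0.75 ± 0.13 (edgeR adjusted p = 3.00e-07), lower in 13 of 15 pools. This count depends on where the gates lie: with thresholds of 50 and 400, 3 members were called higher and 1 lower (4.05% and 10.0% of all rows), and with no filter on low counts 42 of 73 were called higher and 1 lower (14.7% and 11.9% of all rows).

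Between the GMP and CMP gates 3 of 62 members were higher and 1 lower, where 12.1% and 12.8% of all rows were called, 24.9% in all. The gate comparisons share the gates' libraries with one another. Mrpl52 was lower in the GMP gate by -0.80 ± 0.11 (edgeR adjusted p = 3.26e-09), in 12 of 15 pools, so that its level fell from MEP to CMP to GMP gate. Mrpl33 rose by 0.53 ± 0.12 (edgeR adjusted p = 0.000189) and Mrpl44 by 0.48 ± 0.14 (edgeR adjusted p = 0.00657). Mrpl37 rose by 0.48 ± 0.13 (edgeR adjusted p = 0.00321), and so was lowest in the CMP gate. With thresholds of 50 and 400, 2 members were higher and 18 of 62 lower, where 26.4% and 30.9% of all rows were called, so the share lower is near that of all rows. With 200 and 1000 edgeR called 0 members, with 2 at an unadjusted p under 0.05. At the thresholds of 100 and 600, DESeq2 called 4 higher and 1 lower.

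In the CMP Irf8-GFP+ MHCII+ gate most members were lower than in unsorted cells. Of 72 members tested, 44 were lower and 2 higher (edgeR, adjusted p under 0.05), where 27.8% of all 8720 rows were called lower and 28.3% higher, 56.1% in all. The median log2 difference was -0.50 for the members and 0.00 for all rows. The dendritic markers summed to 15356 CPM against 166 in unsorted cells, and the erythroid markers to 222 against 9886. Their part in the members' difference was not tested.

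Mrpl12 was among the members that moved most there. It had 220, 246 and 296 CPM in the 6 pools against 424, 506 and 624.7 in the 16 unsorted pools, without overlap, and a log2 difference of -1.02 ± 0.11 (edgeR adjusted p = 4.37e-10). Mrps28 had 126 to 160 against 249 to 362, again without overlap, and differed by -1.07 ± 0.11 (edgeR adjusted p = 7.00e-11). Mrpl18, a large subunit protein that binds the structural RNA of the central protuberance, fell by 0.94 ± 0.09 (edgeR adjusted p = 1.87e-11). Mrpl52 had 208 to 288 CPM against 331 to 680 and differed by -1.11 ± 0.13 (edgeR adjusted p = 3.05e-09). Mrpl22, a protein of the tunnel wall, differed by -1.40 ± 0.18 (edgeR adjusted p = 3.24e-08), Mrpl51 by -1.004 ± 0.13 (edgeR adjusted p = 4.16e-08), and Mrps26 by -0.95 ± 0.12 (edgeR adjusted p = 2.80e-08). Mrps36, the dehydrogenase component, differed by -1.21 ± 0.35 (edgeR adjusted p = 0.00337) from low levels. The 2 members called higher were Mrps33 (1.02 ± 0.33, edgeR adjusted p = 0.00834), with 4.05 to 22.3 CPM, and Mrpl33 (0.92 ± 0.35, edgeR adjusted p = 0.0241), whose level depends on the plate as described below. In the 4 pools whose labels also name this gate, 40 of 71 members were lower and 0 higher, where 24.1% and 25.5% of all rows were called.

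In the CMP Flt3+ Csf1r+ gate 22 of 72 members were lower than in unsorted cells and 7 higher. Of all rows, 27.5% were called lower and 25.8% higher, 53.3% in all, so the share of members called lower is near that of all rows. Erythroid markers summed to 85.3 to 140 CPM in these pools against 7464 to 11486 in unsorted pools, and over each group neutrophil markers summed to 20103 against 17900 and monocyte markers to 1801 against 1091. Their part in the members' differences was not tested. The median log2 difference was -0.20 for the members and -0.04 for all rows. Mrpl52 had 175, 228 and 259 CPM against 331, 529 and 680, without overlap, and differed by -1.14 ± 0.13 (edgeR adjusted p = 3.74e-09). Mrpl22 (-1.26 ± 0.19, edgeR adjusted p = 8.40e-07), Mrps5 (-1.13 ± 0.19, edgeR adjusted p = 7.24e-06) and Mrpl37 (-0.83 ± 0.15, edgeR adjusted p = 1.33e-05) were lower too. Mrps18c, Mrpl47, Mrpl48 and Mrpl19 were called lower with larger changes than these. Mrps18c, Mrpl47 and Mrpl48 are among the members described below whose level depends on the plate. Mrpl43 rose most, by 1.38 ± 0.32 (edgeR adjusted p = 0.000436), from 4.01 to 15.9 CPM in unsorted pools to 5.38 to 34.9. Mrps18a, a large subunit protein in spite of its name, rose by 0.60 ± 0.13 (edgeR adjusted p = 0.000196), and Mrps21 by 0.56 ± 0.12 (edgeR adjusted p = 0.000289). In the 2 pools whose labels name this gate, 10 of 71 members were lower and 3 higher, below the 20.0% and 19.9% of all rows.

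In the CMP CD41+ gate members were called in both directions. Of 72 tested, 6 were higher and 8 lower, below the 18% and 22.5% of all rows (40.5% in all). Megakaryocyte markers summed to 12282 CPM against 117 in unsorted cells, erythroid markers to 1106 against 9886 and neutrophil markers to 1694 against 17900, and their part in the members' differences was not tested. The median was 0.01, and that of all rows -0.15. Mrpl14, which lies at the interface of the subunits, had 309 and 276 CPM in the 2 pools against 157, 176 and 247 in unsorted pools, above all 16, and differed by 0.75 ± 0.17 (edgeR adjusted p = 0.000650). Mrps23 had 280 and 265 against 142, 181 and 235, also above all 16, and differed by 0.65 ± 0.18 (edgeR adjusted p = 0.00344). Mrpl10, the base of the stalk, had 77.3 and 42.2 against 94.1, 113 and 138, below all 16, and differed by -0.83 ± 0.24 (edgeR adjusted p = 0.00616). Mrpl37 with 112 and 95.7 was also below all unsorted pools, at 150 to 266, and differed by -0.81 ± 0.25 (edgeR adjusted p = 0.00950). Among the members called lower, the largest changes were those of Mrpl35 (5.33 and 0 CPM), Mrpl33 (50.7 and 25.3) and Mrpl19 (0 and 5.63). Mrpl35 and Mrpl33 are among the members described below whose level depends on the plate. Leaving out either CD41+ pool left 6 calls, 3 and 3 or 4 and 2. Both pools share 1 plate, and with UMIs summed per plate 5 members were higher and 2 lower, where 14.4% and 14.2% of all rows were called. In these fits the gate is 1 sample, which is assumed to vary like the other groups.

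C/EBPα is the transcription factor required for the granulocyte and monocyte branch. Between the Cebpa knockout and its control 6 of 65 members were higher and 6 lower, where 9.59% and 8.58% of all 5977 rows were called, 18.2% in all, so the members' share is near that of all rows. Each plate holds 2 pools, and with UMIs summed per plate 1 member was higher and 1 lower (2.71% and 3.32% of all rows). The median was -0.17 against 0.02 for all rows. Neutrophil markers summed to 10257 to 18925 CPM in control pools and 88.0 to 1225 in knockout pools, and erythroid markers to 6230 to 12473 and 12890 to 15296. Their part in the members' differences was not tested. Mrpl44 was lower in the knockout, with 57.7, 93.1 and 115 CPM in 12 pools against 117, 155 and 182 in 6 control pools, without overlap. Its log2 difference was -0.77 ± 0.14 (edgeR adjusted p = 0.000311), and -0.83 and -0.74 within batches SB23 and SB29. Mrpl22 was higher by 0.95 ± 0.22 (edgeR adjusted p = 0.00370), with 0.93 and 0.97 within the batches, although the groups overlap at 80.4 to 178 against 23.1 to 104. Mrpl28 was lower by -0.55 ± 0.14 (edgeR adjusted p = 0.00753). Mrpl52, at 685, 872 and 989 in the knockout and 742, 868 and 1125 in the control, did not differ beyond its spread (-0.17 ± 0.13, edgeR adjusted p = 0.358).

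The Cebpa comparison gave different counts in each batch. In SB23 the sum of the members was 13554 to 13870 in 4 knockout pools, above the 2 control pools at 12882 and 13206. Without Mrpl33, Mrps18c, Mrpl48, Mrpl47 and Mrpl35, whose level depends on the plate as described below, the SB23 groups overlapped. The sum was then 12763 to 13059 in the knockout pools and 12735 and 13120 in the control pools. This reduced sum still holds Mrpl42 and Mrpl13, which also differ between plates. Mrpl42 had 326 and 137 CPM on the SB23 knockout plates and 5.83 on the SB23 control plate. Mrpl13 had 164 and 123 on the knockout plates and 72.3 on the control plate. In SB29 the sum of all members was 11719 to 13805 in 8 knockout pools and 13244 to 15849 in 4 control pools, where the highest values belong to control replicates 5 and 6. Within SB23 alone 11 of 69 members were higher and 1 lower (7.73% and 3.98% of all rows), and within SB29 alone 1 of 64 was higher and 4 lower (3.14% and 5.57%). Without control replicates 5 and 6, 4 of 68 were higher and 1 lower (5.40% and 4.96% of all rows), and without replicates 3 and 4, 10 and 16 (15.3% and 13.1%). The labels name different strains for these pairs of control pools. Mrpl48, Mrpl33 and Mrps18c, higher in the knockout by 1.64, 1.26 and 1.25, differed by 2.85, 2.73 and 2.70 in SB23 and by 1.04, 0.50 and 0.44 in SB29, and all 3 belong to the members described below whose level depends on the plate.

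C/EBPε acts later in the granulocyte branch and is needed for secondary granules. In the Cebpe knockout 14 of 69 members were lower than in the control and 2 higher, where 9.85% of all 7369 rows were called lower and 13.5% higher, 23.4% in all. The median was -0.27 against -0.01 for all rows, and 62 of the 69 estimates were below 0. The neutrophil markers summed to 48005 to 53187 CPM in the knockout and to 14029 and 15530 in the control, and the erythroid markers to 2626 to 3794 and to 9351 and 11069. Their part in the members' difference was not tested. Mrpl52 had 279, 254, 236 and 269 CPM in the 4 knockout pools and 575 and 656 in the control pools, without overlap, and differed by -1.13 ± 0.14 (edgeR adjusted p = 4.33e-07). Mrpl38 had 90.9, 97.1, 83.7 and 85.9 against 146 and 185 and differed by -0.77 ± 0.19 (edgeR adjusted p = 0.00359). Mrpl3 had 52.2, 48.6, 74.4 and 79.5 against 109 and 159 and differed by -0.92 ± 0.23 (edgeR adjusted p = 0.00329). Mrpl12 had 289, 340, 316 and 243 against 472 and 462 and differed by -0.53 ± 0.15 (edgeR adjusted p = 0.00818). Mrpl50, at 15, 7, 17 and 18 UMIs against 44 and 62, differed by -1.64 ± 0.30 (edgeR adjusted p = 0.000131). It also differed between the plates of unsorted cells, at 3.36 to 27.6 CPM (edgeR adjusted p = 0.000197).

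The 2 members that were higher in the Cebpe knockout were Mrpl44 and Mrpl33, both of which were also lower in the MEP than in the GMP gate. Mrpl44 had 150, 169, 163 and 180 CPM against 101 and 126, a difference of 0.66 ± 0.19 (edgeR adjusted p = 0.00902). Mrpl33 had 956, 886, 693 and 767 against 603 and 562, a difference of 0.63 ± 0.15 (edgeR adjusted p = 0.00226). Without control replicate 1, 9 of 69 members were lower and 1 higher (5.63% and 9.41% of all rows), and without replicate 2, 3 were lower and 2 higher (4.18% and 7.43%). These fits hold 1 control pool, which is assumed to vary like the knockout pools. Grouped by sample label, under which the Cebpe control pools hold no Cebpe UMI, 11 of 70 members were higher and 0 lower, where 9.22% and 10.0% of all rows were called. The 6 pools come from 1 batch and 3 plates, 1 of them the control plate, so plate and genotype cannot be told apart.

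Some members differed between plates within the unsorted cells, which all carry 1 mouse identifier. Between the 8 plates, 29 of 70 members tested (41.4%) passed edgeR's test, against 29.6% of 7774 rows. The 7 with the largest test statistic were Mrpl42, Mrpl33, Mrpl13, Mrps18c, Mrpl48, Mrpl47 and Mrpl35, all large subunit names except Mrps18c, and they were chosen here after their values were seen. The plates of unsorted cells fall into 2 sets for the sum of Mrpl33, Mrps18c, Mrpl48, Mrpl47 and Mrpl35: plates 4, 6 and 8 had 101, 107 and 114 CPM, and plates 2, 3, 5, 7 and 9 had 384, 689, 567.8, 480 and 639. Mrpl42 had 25.2, 7.20 and 17.4 on the first set and 27.9, 173, 134, 96.5 and 200 on the second. Plate 2, high for the sum, was low for Mrpl42, for Mrpl13 (55.7) and for Mrpl47 (5.07). Mrpl52 was 384 to 630 over the same 8 plates and passed the test between plates too (edgeR adjusted p = 0.000510), but its lowest and highest plates, 9 and 2, are both in the second set. Plates also differed in their cells. The MEP gate held 48 and 45 cells in the pools of plate 9 and 97 and 88 in those of plate 2. Plate 3, also with 48 and 45, had Mrpl52 at 586 CPM. The part of cell composition in the differences between plates was not tested. Sums of all members were 11189 to 12964 per plate.

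Plates of the other groups differed in these members too. The 5 summed members had 58.9 CPM on the CD41+ plate, 179, 242 and 212 on the Flt3+ Csf1r+ plates, and 192 on 1 Irf8-GFP+ MHCII+ plate against 842 and 844 on the other two. They had 113 on the SB23 plate of the Cebpa control against 825 and 682 on the SB23 plates of the knockout, and 996 to 1223 on all Cebpe plates. Mrpl42 had 1 and 0 UMIs in the CD41+ pools, a level of 2.67 and 0 CPM, and 297 and 328 CPM in the Cebpe control pools. Differences between groups in these members are therefore given beside their plates, and the part of plate in them was not tested apart from the batch and per-plate settings. The gate tests compare gates of the same pools, with the pool as a block.

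**Figure D4:**
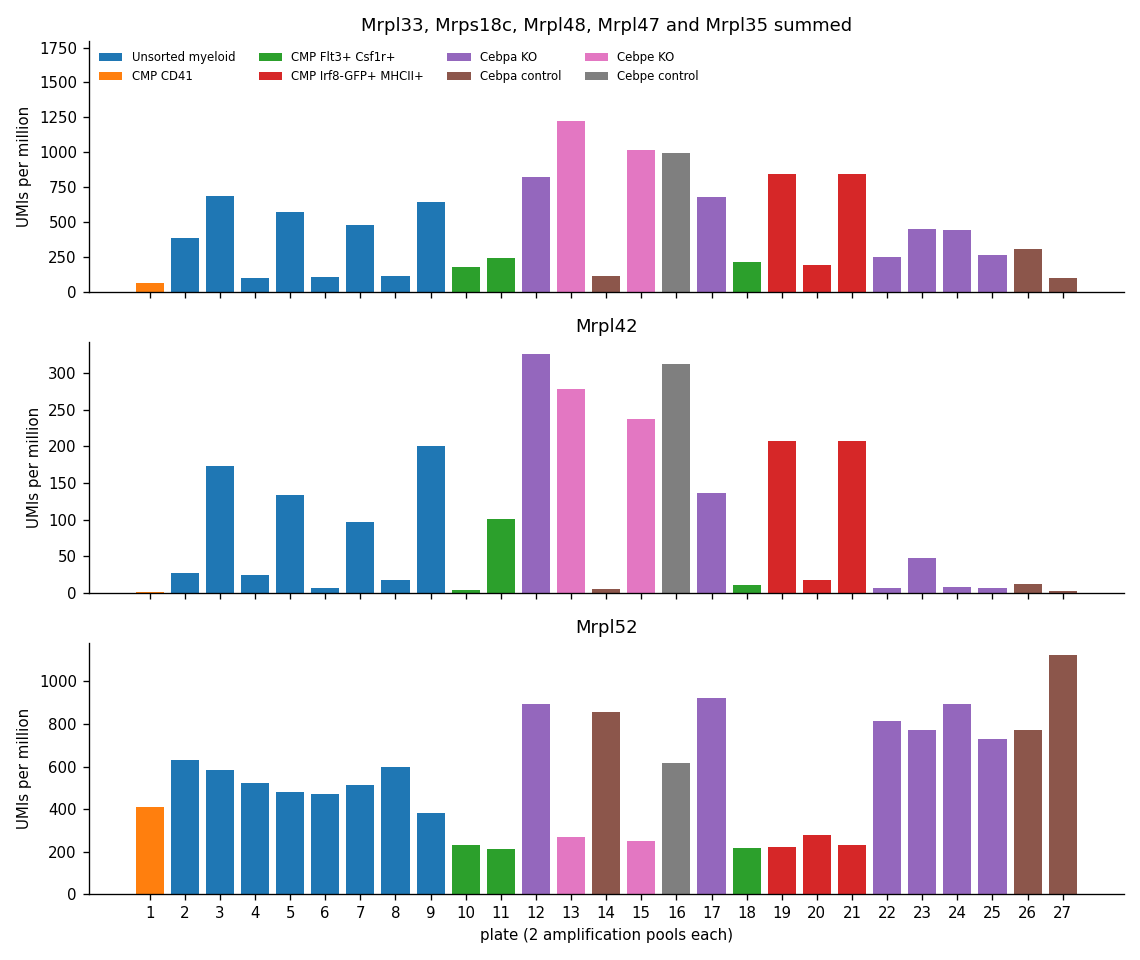
CPM (vertical axes, linear from 0) on each of the 27 plates (horizontal axis, coloured by group) for 5 members summed, for Mrpl42 and for Mrpl52. The first 2 panels switch between low and high plates within unsorted cells, for example 101 on plate 4 and 567.8 on plate 5, while Mrpl52 is 384 to 630 on the unsorted plates and 211 to 232 on those of the Flt3+ Csf1r+ gate.

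Genes that act with the mitochondrial ribosome were read from lists, and the rows of Mtif2 and Pprc1 carry a further transcript name each. Beside them stand the shares of all rows given above: 36.4% higher and 31.6% lower in the MEP against the GMP gate, and 28.3% higher and 27.8% lower in the Irf8-GFP+ MHCII+ gate. Of 7 mitoribosome proteins under other names, 3 of 6 tested rose in the MEP against the GMP gate and 0 fell, and 4 of 7 were lower in the Irf8-GFP+ MHCII+ gate. Dap3, a small subunit protein, had 321, 386 and 480 CPM in MEP-gate pools and 107, 188 and 276 in GMP-gate pools. It differed by 0.97 ± 0.07 (edgeR adjusted p = 2.54e-21) between the gates, and by -1.21 ± 0.13 (edgeR adjusted p = 3.55e-10) in the Irf8-GFP+ MHCII+ gate. Of 12 translation factors, 4 of 5 tested rose in the MEP against the GMP gate, with the initiation factor Mtif2 at 0.74 ± 0.14 (edgeR adjusted p = 2.45e-06) and the elongation factors Gfm1 at 0.57 and Tufm at 0.38, and 6 of 10 fell in the Irf8-GFP+ MHCII+ gate. Of 17 assembly factors, 2 of 5 tested rose, near the share of all rows, and 5 of 13 fell in these comparisons. C1qbp, an RNA-binding matrix protein, rose by 0.40 ± 0.05 (edgeR adjusted p = 4.49e-11) in the MEP gate and fell by 0.67 and 0.60 in the Irf8-GFP+ MHCII+ gate and the Cebpe knockout.

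Of 17 mitochondrial tRNA synthetases, 5 of 8 tested rose and 1 fell in the MEP against the GMP gate, and 9 of 17 fell with 0 rising in the Irf8-GFP+ MHCII+ gate. Of 12 genes of mitochondrial transcription and the nucleoid, 5 of 6 tested rose and 1 fell in the MEP gate. The helicase Peo1 rose by 0.88 ± 0.13 (edgeR adjusted p = 1.43e-08), Lrpprc, which stabilises mitochondrial mRNA, by 0.81 ± 0.13 (edgeR adjusted p = 7.89e-08), and Tfam, which packages mitochondrial DNA, by 0.72 ± 0.09 (edgeR adjusted p = 3.94e-11), while Ssbp1 differed by -0.50. Of 12 regulators, 4 of 8 tested rose and 0 fell in the MEP against the GMP gate, and 3 rose and 1 fell against the CMP gate. In the Irf8-GFP+ MHCII+ gate 2 of 10 were higher and 4 lower. Pprc1, a coactivator related to PGC-1, rose by 0.84 ± 0.09 (edgeR adjusted p = 3.84e-13) in the MEP against the GMP gate. It differed by -0.92 in the Irf8-GFP+ MHCII+ gate and by -0.90 in the Cebpe knockout. Hcfc1, a cofactor of NRF1 and GABP, rose by 0.57 and Nrf1 by 0.35 in the MEP against the GMP gate.

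Cytosolic ribosomal proteins and oxidative phosphorylation subunits were read in the same fits. Cytosolic ribosomal proteins were higher in the CD41+ gate (36 of 74 tested higher, 3 lower, median 0.58) and the Flt3+ Csf1r+ gate (38 higher, 8 lower, median 0.39), where the members' medians were 0.01 and -0.20 and 18% and 25.8% of all rows were called higher. In the Irf8-GFP+ MHCII+ gate 16 were higher and 9 lower, and in the MEP against the CMP gate 6 of 57 were higher and 11 lower. In the MEP against the GMP gate 19 of 57 were higher and 4 lower. The sum of cytosolic ribosomal proteins was higher there in 16 of 16 pools, with a median ratio of 1.14. The nuclear-encoded oxidative phosphorylation subunits had 38 of 76 lower and 8 higher in the Irf8-GFP+ MHCII+ gate, with a median of -0.25. In the MEP against the CMP gate 30 of 73 were higher and 4 lower, where 22.3% and 24.6% of all rows were called. In the MEP against the GMP gate 32 of 73 were higher and 14 lower, where 36.4% and 31.6% of all rows were called. Their sum was higher there in 16 of 16 pools, with a median ratio of 1.19. The comparisons with unsorted cells share the unsorted pools.

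**Figure D5:**
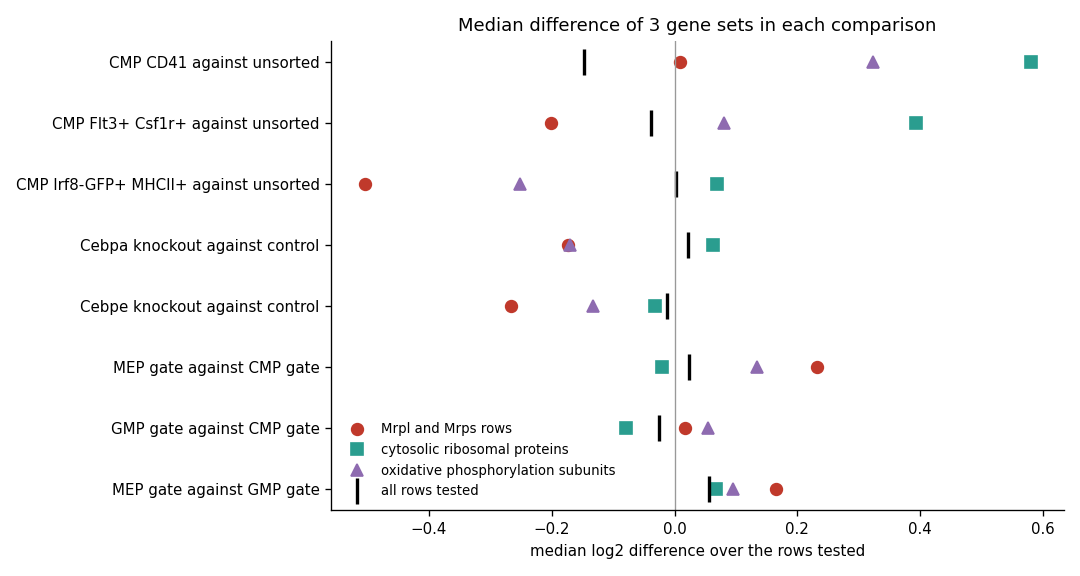
Median log2 difference over the rows tested (horizontal axis) in each of the 8 comparisons (vertical axis) for the members, the cytosolic ribosomal proteins, the oxidative phosphorylation subunits and all rows. In the Irf8-GFP+ MHCII+ gate the members stand at -0.50 and the cytosolic ribosomal proteins at 0.07.

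The members differed in how closely they followed their sum. Over 11 points, the 8 groups and the 3 gates of which the unsorted group is made, the correlation of each member with the sum of the others had a median of 0.625. It was above 0.5 for 43 members and below 0 for 6: Mrpl43 (-0.48), Mrpl33 (-0.41), Mrpl1 (-0.27), Mrpl4 (-0.23), Mrpl44 (-0.14) and Mrpl42 (-0.11). Of these, Mrpl43 and Mrpl1 are low, with 323 and 171 UMIs in kept cells, and Mrpl33 and Mrpl42 are among the members that differed most between plates. The part of low counts and of plate in these correlations was not tested. Mrpl17 (0.957), Mrps24 (0.956) and Mrps28 (0.956) followed the sum of the others most closely. Among 8752 rows outside the members, the closest to their sum were Grhpr (r = 0.974), an enzyme of glyoxylate metabolism, Josd2 (0.968) and Pppde2 (0.966). These points share libraries, so the correlations are descriptions.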

How the data were processed

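Single-cell wells of 54 amplification pools came from the deposited table of raw UMI counts (27297 rows) and the deposited well table, whose CD34 and FcgR columns hold fluorescence intensity. The submitters' processing notes name bcl2fastq 2.15.0.4 and mm9, and no aligner or counting step is given in the sources at hand. Pools held 140748 to 854479 UMIs. The 108 wells without a cell had mean UMIs of 12.5 to 212 per pool, and 0 of them reached 500. Each well was sorted to hold 1 cell, and doublets were not called. The closest of 1431 pairs of pools had a chi-square per degree of freedom of 1.35, so none were treated as copies.

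UMIs of kept cells were summed per pool, or per pool and gate with at least 20 cells, and tested with edgeR 4.0.16 in R 4.3.3 (filterByExpr, TMM, quasi-likelihood test, Benjamini-Hochberg over all rows tested, adjusted p under 0.05). Unsorted pools and the 3 CMP gates were fitted together. Gate fits had the pool as a block, since all gates of a pool are wells of 1 library. The scripts were tested on simulated counts. Alternatives were DESeq2 1.42.0, no filter, minima of 1000 UMIs or none, other gate thresholds, the sample labels, batch as a term, and leaving out pools. Added after seeing the data were sums per plate, single batches, pairs of control pools left out, gates without 2 plates, the equal weighting of pools in the tally of gates, and the test between plates.

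The members and the lists were chosen with earlier results of these data known. Genes named were taken from the 8 most abundant members and the members next to the UMI minimum. From each comparison they were taken from up to 8 called members per direction by size of change, and not all of these are named. Up to 3 called genes per list and comparison and the 3 rows most like the members' sum were added. Members that differed most between plates, or followed the members' sum most or least closely, are named as well. Protein sequences were not used here, and no mm9 coordinates are given.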

Additional observations from a re-analysis of the deposited data

Results flagged for a closer look

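In groups of 4 to 10 pools, the highest or lowest pool was compared with its nearest neighbour relative to the whole range (Dixon's criterion at 95%), for 12 measures of the members in 4 groups, 48 in all. Chance gives about 1 in 20 groups, and 3 stood apart. Mrpl54 had 465 CPM in replicate 6 of the Flt3+ Csf1r+ gate, with the next pool at 329. Mrpl33 had 204 in replicate 5 of the same gate, with the next pool at 156. Mrps24 had 278 in replicate 4 of the Irf8-GFP+ MHCII+ gate, with the next pool at 229.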

How the results depend on the processing

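Of 131 settings of the counts of members called and of summed levels, 106 stayed within 1.5 times or within 1 SD, 23 moved and 2 reversed, and of 806 settings of single named members 630 kept direction and call, 161 lost the call and 15 reversed. The causes were not tested. The Irf8-GFP+ MHCII+ gate had 31 to 44 members lower in every setting run. In the CD41+ comparison 7 members were called with UMIs summed per plate, and 6 without either CD41+ pool (range 6 to 6). In the Flt3+ Csf1r+ comparison 13 were called with pools of the same label, 13 when grouped by sample label and 18 per plate. In the Cebpa comparison 5 were called with pools of the same label, 1 by label, 2 per plate, 5 in SB29 alone, 26 without control replicates 3 and 4 and 5 without 5 and 6. In the Cebpe comparison 11 were called by label in the opposite direction, 9 per plate, and 5 to 16 when 1 pool was left out (5 without control replicate 2). In the MEP against the CMP gate 43 were called without a filter, and 4 with thresholds of 50 and 400. In the GMP against the CMP gate 7 were called without a filter, 20 with thresholds of 50 and 400 (18 lower, a share near that of all rows), and 0 by edgeR with 200 and 1000 (2 at an unadjusted p under 0.05).

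Grouping by label reversed these log2 differences: in the Flt3+ Csf1r+ gate Mrps18c (0.18), Mrpl47 (0.21) and Mrpl48 (0.30); in the Cebpa comparison Mrpl33 (-0.76) and Mrps18c (-0.067); and in the Cebpe comparison Mrpl44 (-0.44), Mrpl33 (-1.52), Mrpl52 (1.74), Mrps31 (0.43), Mrpl3 (0.24), Mrps2 (0.38), Mrpl38 (1.02) and Mrpl9 (1.05). Thresholds of 50 and 400 reversed Mrpl9 in the MEP against the CMP gate (-0.013) and Mrpl37 in the GMP against the CMP gate (-0.17). The summed level of the CD41+ gate was 11205 CPM without the joined rows and 11824 with TMM-scaled library sizes, which gave 15246 for the Cebpa control and 11163 for the Cebpe knockout. With that scaling the Cebpa knockout had 12625 and the Cebpe control 13027. Unscaled means were 13176 in the Cebpa knockout and 13966 in its control, so their gap depends on the scaling. Without the replicate block, the gate comparisons called 24 (MEP against CMP), 3 (GMP against CMP) and 26 (MEP against GMP). No paired analysis was possible between groups, because pools of different groups share no plate and no mouse identifier.

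Depth limits the low members: 11 had under 1000 UMIs in all kept cells, and the CD41+ gate and the Cebpe control rest on 2 pools each.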
